A study of Mus musculus with 8 samples.

Results

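The alcohol and aldehyde dehydrogenases described here are 9 genes, Adh1, Adh4, Adh5, Adh7, Aldh2, Aldh1b1, Aldh1a7, Aldh3a1 and Aldh3a2, taken by symbol from the 52195 genes of a table of bulk RNA-seq values. The table holds 2 libraries per tissue for kidney, lung, small intestine and liver, taken from untreated male C57BL/6J mice (C57BL/6 in the labels), 6 to 10 weeks old, with all 4 tissues taken from each mouse and the replicates of a tissue from separate mice. Polyadenylated RNA of whole ground tissue was sequenced to give a bulk counterpart for single-cell data of the same tissues, and no mouse carried a transgene or received an agent. The values are FPKM, read fragments scaled to the summed length of the annotated exons of a gene and to the depth of the library. Levels of different genes can thus be set side by side, but they depend on the exons annotated for each.

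Ethanol is cleared mainly in the liver, in a pair of steps. Alcohol dehydrogenases of the cytosol oxidize it to acetaldehyde, which aldehyde dehydrogenases, above all Aldh2 in mitochondria, oxidize to acetate. Members of both families also act on retinol and retinaldehyde, on formaldehyde and on aldehydes from lipids, and several are marks of particular epithelia.

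The depth recovered from the values lay between 9164187 and 21444675 reads per library, with kidney the deepest. Each tissue held its own markers: the summed FPKM of 5 hepatocyte genes was 51441 and 46944 in the liver libraries and at most 172 elsewhere, that of 5 proximal tubule genes was at least 2099 in kidney and at most 9.99 elsewhere, that of 5 club cell genes was at least 46746 in lung and at most 517 elsewhere, where the highest sums were those of liver with Cyp2f2 at 458 and 405, and that of 5 enterocyte genes was at least 5837 in small intestine and at most 57.0 elsewhere. Replicates of small intestine differed in markers of neighbouring organs. Both lung libraries held cardiac muscle markers, with sums of 217 and 223 FPKM beside at most 9.10 elsewhere. Their part in the lung levels was not tested. In these bulk libraries, fewer cells of a type and less RNA per cell cannot be told apart.

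All 9 genes passed the filter on low values, an FPKM of at least 1 in 2 or more libraries, Aldh3a1 through lung alone. Its pass in the test across tissues was fixed by that filter. The other 8 differed among the 4 tissues by the F-test of limma with Benjamini-Hochberg adjustment, with adjusted p from 7.09e-07 for Aldh1b1 to 0.00594 for Aldh3a2. The same test was passed by 90.9% of the 16328 genes tested. A difference between a pair of tissues is called below where its adjusted p in limma was under 0.05 and its size in log2(FPKM + 1) over 1. Of the 54 member-by-pair comparisons, 35 (64.8%) were called, beside 40.4% of all comparisons over all genes, and without Aldh3a1 32 of 48 (66.7%). Adh1, Adh4 and Aldh1b1 were called in 5 of the 6 pairs each, as were 9.88% of all genes in at least 5, and Aldh3a2 in 1. The mean level was highest in liver for 7 genes, in lung for Aldh3a1 and in small intestine for Aldh1b1, and kidney was highest for none. Of the 7, only Adh1 and Adh4 were called against the next tissue, and with mitochondrial genes left out of the scaling Aldh3a2 was higher in kidney than in liver.

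**Figure D1:**
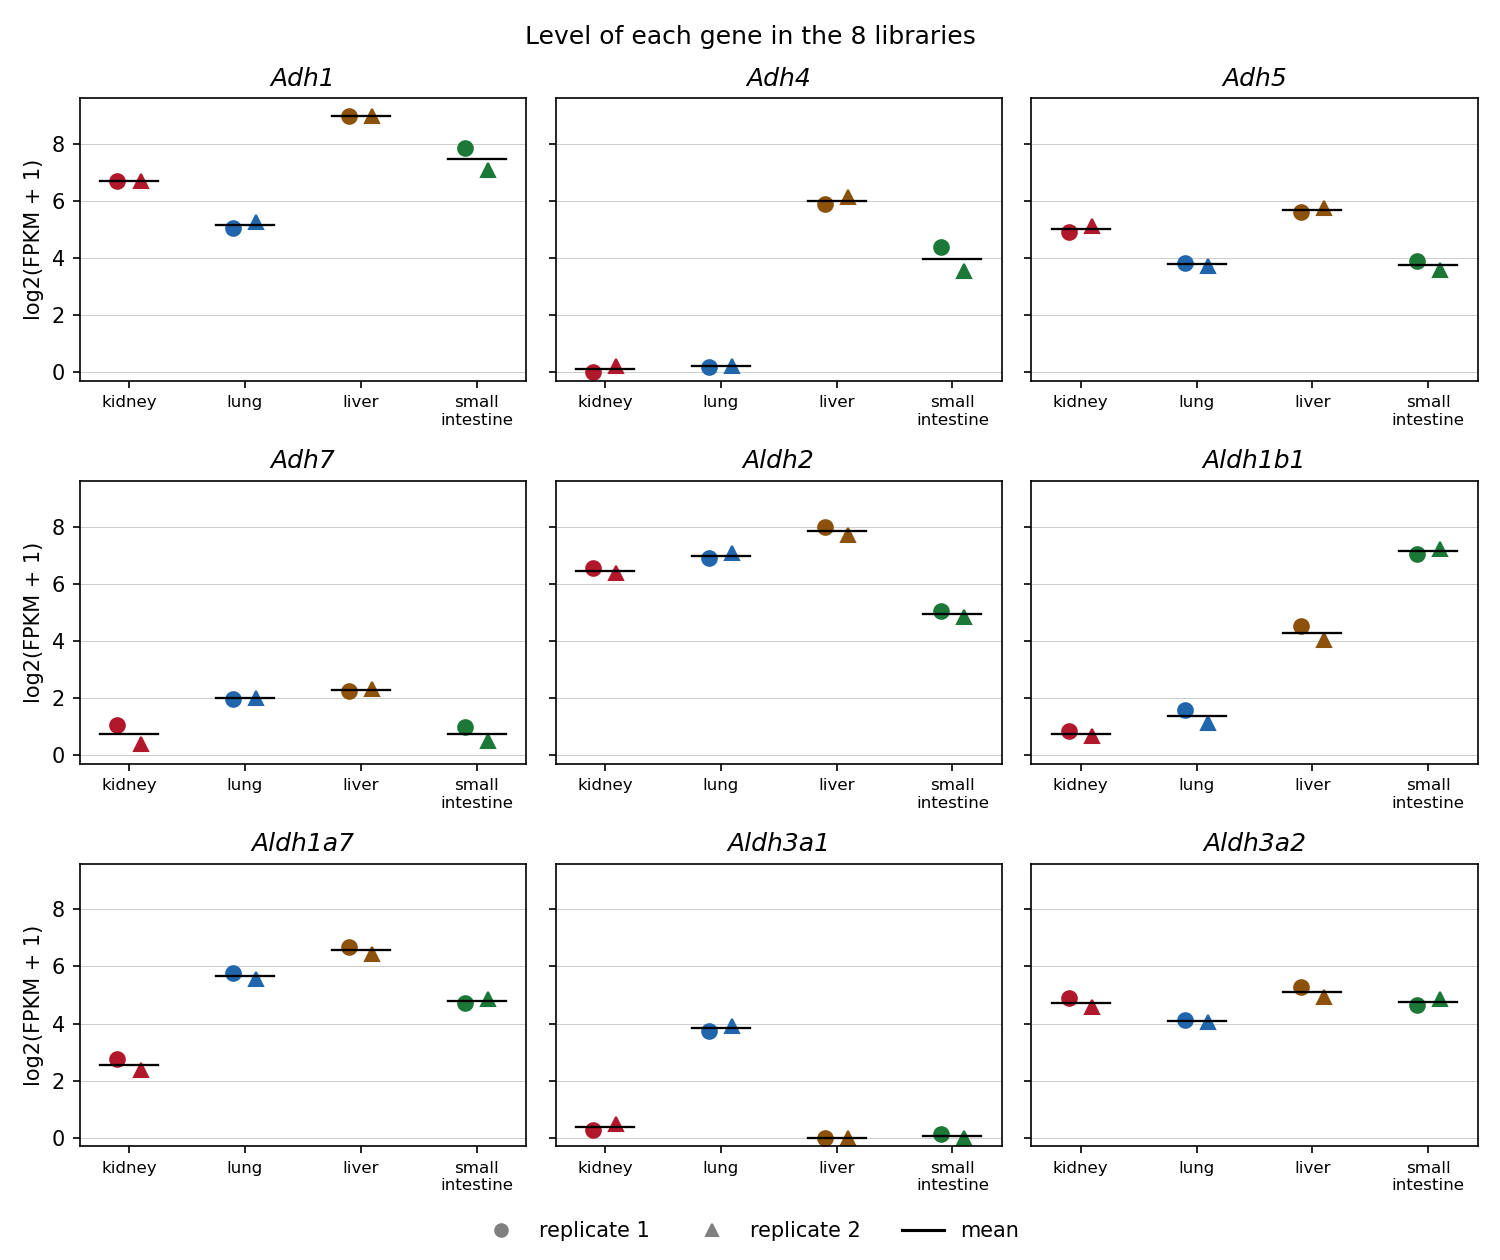
Level of each of the 9 genes on the log2(FPKM + 1) scale in the 8 libraries, with circles for replicate 1, triangles for replicate 2 and a bar for the mean of the 2. Liver is highest for 7 genes, Aldh3a1 is near 0 outside lung, and Aldh1b1 is highest in small intestine, with the exception that Aldh3a2 is higher in kidney than in liver when mitochondrial genes are left out of the scaling.

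Adh1 encodes the class I alcohol dehydrogenase, the main ethanol-oxidizing enzyme of the cytosol and a retinol dehydrogenase. The gene lies on chr3:138260991-138290698, plus strand (GRCm38, GENCODE M21), with 11 exon blocks. Its level was 504 and 497 FPKM in liver, 229.7 and 133 in small intestine, 102 and 104 in kidney and 32.2 and 37.0 in lung. Liver stood above all others in both libraries, small intestine came next with the widest spread, and no tissue overlapped another. Liver was 2.76-fold above small intestine (log2 difference 1.51, SE 0.24, adjusted p = 0.00119), 4.87-fold above kidney (2.27, adjusted p = 0.000208) and 14.5-fold above lung (3.82, adjusted p = 5.03e-06). Kidney was called above lung as well (2.97-fold, log2 difference 1.55, adjusted p = 0.000756). The step from small intestine to kidney, 0.76 with a 95% interval from 0.20 to 1.32 and adjusted p = 0.0329, was not called, although it was without small intestine replicate 2 (1.15, adjusted p = 0.00180). It was smaller under median-of-ratios scaling (0.44, adjusted p = 0.267) and without mitochondrial genes in the scaling (0.25, adjusted p = 0.411). In liver Adh1 ranked 108 of 20630 genes above 0 by mean FPKM, against 1541 of 26051 in lung. An antisense gene, Gm16559, overlaps 6.09% of the exon length of Adh1, and whether the counting used strand was not given in the sources used here.

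Adh4 encodes the class II enzyme, a form known from liver that needs higher ethanol concentrations than class I. It lies on chr3:138415466-138430892, plus strand, with 10 exon blocks. Its level was 57.9 and 69.5 FPKM in liver, from 770 and 1041 reads, and 19.97 and 10.8 in small intestine, from 271 and 177 reads. Kidney held 0 and 0.159 FPKM, from 0 and 4 reads, and lung 0.141 and 0.166, from 2 and 3 reads. Adh4 was thus near the limit of detection in kidney and lung, where a floor of 3 reads per library applies, and those tissues overlapped. Liver was 4.15-fold above small intestine, with ratios of single libraries from 2.90 to 6.45 (log2 difference 2.04, SE 0.28, adjusted p = 0.000523). Small intestine in turn exceeded lung by 3.77 (adjusted p = 1.59e-05) and kidney by 3.87 (adjusted p = 1.92e-05) on the log2(FPKM + 1) scale, which understates differences from values near 0. Lung minus kidney was 0.10 with an interval from -0.54 to 0.74, and its sign turned under median-of-ratios scaling.

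Adh5 encodes the class III enzyme, glutathione-dependent formaldehyde dehydrogenase, which also reduces S-nitrosoglutathione and has little activity on ethanol. It lies on chr3:138443093-138455499, plus strand, with 8 exon blocks, downstream of Adh4. Its level was 48.1 and 53.2 FPKM in liver, 29.1 and 33.8 in kidney, 13.2 and 12.3 in lung and 14.0 and 10.9 in small intestine. It was found in every library, liver and kidney held the higher levels, and lung and small intestine overlapped. The highest and lowest tissue means, 50.7 ± 3.56 FPKM for liver and 12.4 ± 2.19 for small intestine (SD, n = 2), were 4.08-fold apart, a narrower range than the 14.5-fold of Adh1. Kidney was called above lung (log2 difference 1.24, adjusted p = 0.000364) and above small intestine (1.28, adjusted p = 0.000512). Liver exceeded kidney by 0.67 (interval 0.28 to 1.06, adjusted p = 0.0153), short of a call, by 1.21 under median-of-ratios scaling, which was called, and by 0.10 with mitochondrial genes left out (adjusted p = 0.599). Lung minus small intestine was 0.04 (interval -0.35 to 0.43, adjusted p = 0.837), and the sign turned under both other scalings.

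The sequences before the start sites of these genes are shown because the genes share a cluster and strand but differ in their levels outside liver. Each had its highest mean in liver, with small intestine next for Adh1 and Adh4 and kidney next for Adh5. Each run holds the 250 bases up to the RefSeq start on GRCm38.p6, with any match to a searched motif in capitals. The windows are chr3:138277335-138277584 for Adh1, chr3:138415247-138415496 for Adh4 and chr3:138442843-138443092 for Adh5, all on the plus strand. The table held windows for 7 of the 9 genes, with 2 for Adh5, of which the one at the annotated gene start is shown. The Adh1 window lies 16.3 kb inside the gene as GENCODE annotates it.
Adh1: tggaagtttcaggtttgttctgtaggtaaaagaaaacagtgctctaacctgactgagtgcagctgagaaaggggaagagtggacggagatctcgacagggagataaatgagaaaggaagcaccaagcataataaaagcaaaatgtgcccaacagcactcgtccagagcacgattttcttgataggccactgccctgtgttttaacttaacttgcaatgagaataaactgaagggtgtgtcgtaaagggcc
Adh4: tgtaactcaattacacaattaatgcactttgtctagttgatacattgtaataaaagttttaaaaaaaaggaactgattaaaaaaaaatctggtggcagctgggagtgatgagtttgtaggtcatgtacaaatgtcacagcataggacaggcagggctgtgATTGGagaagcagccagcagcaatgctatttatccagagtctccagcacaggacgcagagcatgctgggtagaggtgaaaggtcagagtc
Adh5: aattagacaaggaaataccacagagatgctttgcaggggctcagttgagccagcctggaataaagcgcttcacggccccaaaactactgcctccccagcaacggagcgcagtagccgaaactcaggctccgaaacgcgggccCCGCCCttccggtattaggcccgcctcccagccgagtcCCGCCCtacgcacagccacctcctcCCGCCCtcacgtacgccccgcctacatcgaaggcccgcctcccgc
Searched on both strands of the 300-base windows (250 before and 50 after the start) were the TATA box TATAAA, held by 13.6% of 32851 promoters, the CCAAT box itself, held by 37.4%, the GC box CCGCCC, held by 35.7%, the xenobiotic response core GCGTG, held by 32.4%, the antioxidant response core TGACNNNGC, held by 12.4%, and the liver factor HNF1 core GTTAAT, held by 7.1%. No motif contains another. The whole Adh5 window held CCGCCC 3 times, in the bases shown, and GCGTG once after the start, Adh4 held the CCAAT box once, on the minus strand, and Adh1 held none of the 6. Over the bases shown, GC content was 63.6% with 21 CpG pairs for Adh5, 44.8% with 5 for Adh1 and 41.6% with 1 for Adh4, beside medians of 52.4% and 6 over all promoters. The other Adh5 window, not shown, differed: its GC content was 45.2% with 2 CpG pairs, and it held TATAAA once and no CCGCCC. These matches describe the letters in the windows and were not tested as binding sites.

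Adh7 encodes the class IV enzyme, a retinol and ethanol dehydrogenase known from stomach and other upper digestive epithelia. It lies on chr3:138217760-138233382, plus strand, at the upstream end of the cluster, with 10 exon blocks, and an antisense gene, 0610031O16Rik, overlaps 2.852% of its exon length. Its level was 3.75 and 4.02 FPKM in liver, 2.89 and 2.996 in lung, 1.07 and 0.320 in kidney and 0.987 and 0.420 in small intestine. Liver and lung stood apart from the others, which overlapped each other and rested on few reads: 87 and 21 in kidney and 35 and 18 in small intestine. Replicate 1 of kidney held 3.34 times the level of replicate 2. Over all genes tested the replicates of kidney stood furthest apart, with a median absolute log2 difference of 0.30 beside 0.18 in small intestine, 0.15 in lung and 0.14 in liver. Liver was called above kidney (log2 difference 1.56, SE 0.26, adjusted p = 0.00224) and above small intestine (1.54, adjusted p = 0.00157). Lung was called above kidney (1.25, adjusted p = 0.00315) and small intestine (1.23, adjusted p = 0.00409), but under median-of-ratios scaling these fell to 0.59 and 0.67 and neither was called, nor was the first with mitochondrial genes left out of the scaling (0.88) or without kidney replicate 2, or the second without small intestine replicate 2. Liver minus lung was 0.31 (interval -0.29 to 0.91, adjusted p = 0.300), and 1.55, a call, under median-of-ratios scaling. Small intestine minus kidney was 0.02 (interval -0.58 to 0.62), with the sign turned under both other scalings.

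Along the chromosome the 6 genes of the cluster follow each other in the order Adh7, Adh1, Adh6a, Adh6b, Adh4 and Adh5 over 237.7 kb, with no other protein-coding gene between them. Neighbours had different tissue patterns. Adh6a, another alcohol dehydrogenase, was at 367 and 254 FPKM in small intestine and at most 0.846 in the other 6 libraries, while Adh1 before it was highest in liver. Adh6b after it reached at most 0.140 FPKM in any library and was not tested. Adh4, next along, was again highest in liver.

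**Figure D2:**
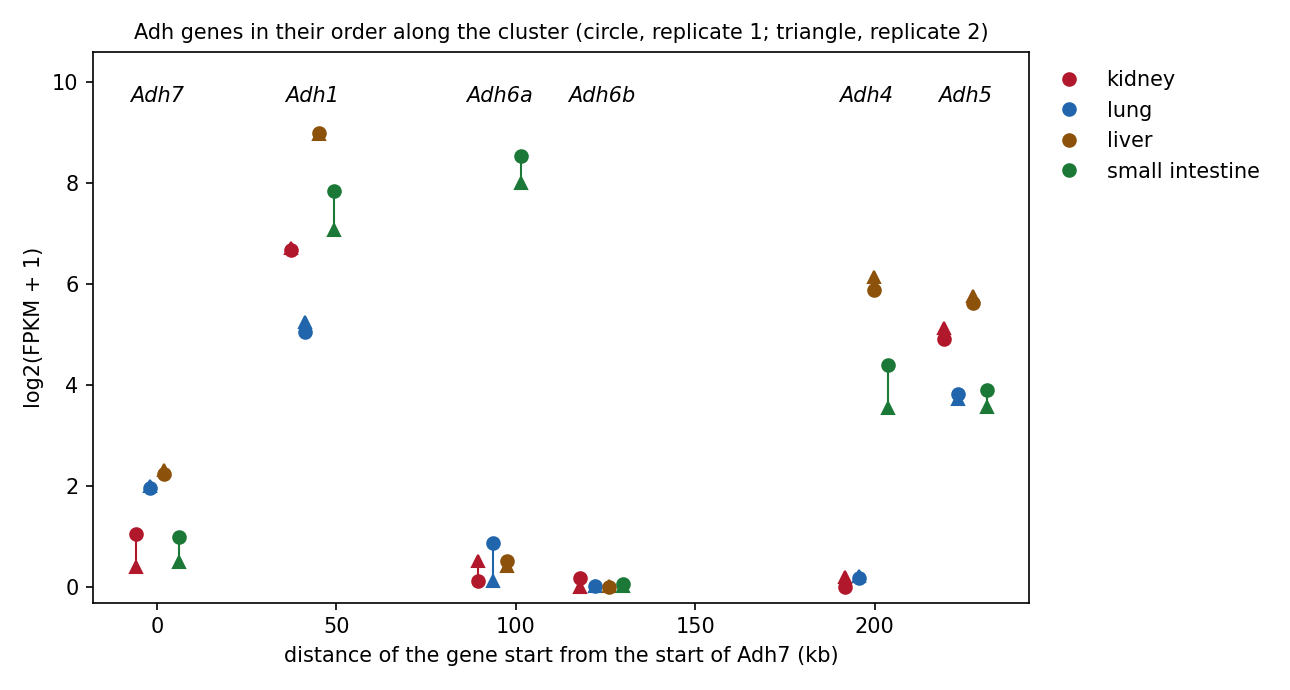
Level on the log2(FPKM + 1) scale of the 6 Adh genes against the distance of their starts from that of Adh7 in kb, with a colour and a small sideways shift for each tissue, circles for replicate 1, triangles for replicate 2 and a line joining the 2. Adh1 and Adh4 are highest in liver, Adh6a between them is high in small intestine only among these 4 tissues, and Adh6b is near 0 throughout.

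Aldh2 encodes the mitochondrial enzyme that removes most acetaldehyde. It lies on chr5:121566027-121593824, minus strand, with 13 exon blocks, of which Gm42879 on the opposite strand overlaps 2.536%. Its level was 251 and 208 FPKM in liver, 119 and 133 in lung, 92.4 and 81.8 in kidney and 32.1 and 27.5 in small intestine. No tissues overlapped, every library held at least 27.5 FPKM, and both libraries of small intestine were lowest. Liver was 7.71-fold above small intestine (log2 difference 2.90, SE 0.16, adjusted p = 3.48e-06), lung 4.22-fold (2.04, adjusted p = 2.14e-05) and kidney 2.92-fold (1.52, adjusted p = 0.000152). Liver was called above kidney (1.38, adjusted p = 0.000325), but not with mitochondrial genes left out of the scaling (0.81). Liver minus lung was 0.86 (interval 0.49 to 1.23, adjusted p = 0.00143), short of the size for a call, and 2.51 under median-of-ratios scaling, which was called. Lung minus kidney was 0.52 (adjusted p = 0.0184) and changed sign under both other scalings, to -0.57 and -0.18.

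Aldh1b1 encodes a second mitochondrial aldehyde dehydrogenase, known from intestinal stem and progenitor cells, whose coding sequence matched that of Aldh2 at 69.04% of aligned bases. It lies on chr4:45799022-45804604, plus strand, with 2 exon blocks. Its level was 131 and 147 FPKM in small intestine, 21.9 and 15.3 in liver, 2.01 and 1.19 in lung and 0.771 and 0.578 in kidney. No tissues overlapped, and both libraries of small intestine stood far above the rest, on 2819 and 3826 reads beside 38 and 23 in kidney. Small intestine was 7.48-fold above liver, with ratios of single libraries from 5.99 to 9.61 (log2 difference 2.86, SE 0.23, adjusted p = 2.87e-05), 87.0-fold above lung (5.77, adjusted p = 1.05e-06) and 206-fold above kidney (6.39, adjusted p = 7.12e-07). Liver was also called above lung (2.91, adjusted p = 1.52e-05), and lung minus kidney was 0.62 (adjusted p = 0.0405) without a call. The difference between the pair of mitochondrial enzymes was one of order: Aldh2 was lowest where Aldh1b1 was highest. In small intestine the mean of Aldh1b1 was 139 ± 11.3 FPKM against 29.8 ± 3.23 for Aldh2, while the liver means were 18.6 ± 4.66 and 229 ± 30.01 (SD, n = 2). The bases before its start, chr4:45798772-45799021, plus strand, are shown because it was the one member highest in small intestine.
Aldh1b1: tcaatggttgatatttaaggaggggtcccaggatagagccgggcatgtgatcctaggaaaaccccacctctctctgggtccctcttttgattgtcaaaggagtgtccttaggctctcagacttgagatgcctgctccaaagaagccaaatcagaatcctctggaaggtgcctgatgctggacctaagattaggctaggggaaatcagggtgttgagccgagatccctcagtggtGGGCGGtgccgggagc
The whole window held CCGCCC once, in the bases shown, and the CCAAT box once, after the start, both on the minus strand. The bases shown had a GC content of 53.2% and 4 CpG pairs.

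Aldh1a7 encodes a cytosolic aldehyde dehydrogenase close to Aldh1a1, the retinaldehyde dehydrogenase that makes retinoic acid. It lies on chr19:20692953-20727562, minus strand, with 13 exon blocks. Its level was 102 and 86.5 FPKM in liver, 53.4 and 46.0 in lung, 25.6 and 27.8 in small intestine and 5.71 and 4.17 in kidney. The 4 tissues did not overlap and kidney was lowest in both libraries. Liver was 19.1-fold above kidney (log2 difference 4.01, SE 0.18, adjusted p = 1.81e-06), lung 10.1-fold (3.10, adjusted p = 4.52e-06) and small intestine 5.41-fold (2.23, adjusted p = 3.53e-05). Liver minus lung, 0.91 (adjusted p = 0.00201), and lung minus small intestine, 0.87 (adjusted p = 0.00372), were not called, the first being called under both other scalings (2.53 and 1.03). The second fell to 0.10 (adjusted p = 0.727) under median-of-ratios scaling and to 0.68 (adjusted p = 0.0213) without mitochondrial genes in the scaling.

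The coding sequences of Aldh1a7 and Aldh1a1 are 91.63% identical, with a longest shared stretch of 100 bases, and 13.8% of the 31-base words of Aldh1a7 also occur in Aldh1a1, so part of its reads could have been placed on either gene. The first 90 coding bases of each, from GENCODE M21 transcripts on GRCm38, show how alike they are, with the 5 positions that differ in capitals.
Aldh1a7: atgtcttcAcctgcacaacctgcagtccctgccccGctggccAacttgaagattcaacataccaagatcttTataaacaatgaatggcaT
Aldh1a1: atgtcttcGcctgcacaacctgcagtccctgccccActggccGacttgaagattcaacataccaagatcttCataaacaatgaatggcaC
Aldh1a1 was at 257 and 219 FPKM in liver, 221 and 216 in lung, 121 and 120.0 in small intestine and 1.47 and 1.35 in kidney. The ratio of Aldh1a1 to Aldh1a7 was 4.51 ± 0.273 in small intestine, 4.42 ± 0.398 in lung, 2.53 ± 0.000857 in liver and 0.290 ± 0.0471 in kidney (SD, n = 2). Kidney was thus the one tissue where Aldh1a7 exceeded Aldh1a1, which held for both of its libraries. How the counting shared reads between the pair was not tested.

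Aldh3a1 encodes a cytosolic aldehyde dehydrogenase known from cornea and stomach, which acts on aromatic and lipid-derived aldehydes. It lies on chr11:61207537-61218421, plus strand, with 12 exon blocks. Its level was 12.5 and 14.0 FPKM in lung, from 237 and 337 reads. Kidney held 0.216 and 0.387, from 9 and 13 reads, small intestine 0.110 and 0, from 2 and 0 reads, and both liver libraries were at 0, where 3 reads would have been 0.169 and 0.1496 FPKM. Lung thus stood alone. Because the gene passed the filter on low values only through its lung libraries, its 3 called differences of lung from the rest were bound to appear and are a description, with no p given. Lung was 43.9-fold above kidney, with ratios of single libraries from 32.3 to 64.6 (log2 difference 3.45), and at least 83.2-fold higher than liver against the floor of 3 reads per library (3.83 on the log2(FPKM + 1) scale). Kidney minus liver was 0.38 (adjusted p = 0.0841) and not called, whereas with a pseudocount of 0.1 it was 1.97 and called. In the lung libraries the summed markers of club cells were 46746 and 61970 FPKM and those of alveolar type 2 cells 16477 and 14284. Those of ciliated cells were 315 and 339, of which Tppp3 alone held 249 and 268. Those of stratified squamous epithelium were 1.78 and 1.67. Of the squamous markers Krt5 was at 1.12 and 0.955, Krt14 at 0.466 and 0.458, Krt13 and Trp63 at most 0.134, and Krt4 at 0. The part of these cells in the level of Aldh3a1 was not tested.

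Aldh3a2 encodes the membrane-bound fatty aldehyde dehydrogenase of the endoplasmic reticulum. It lies on chr11:61223417-61267464, minus strand, next to Aldh3a1, with 13 exon blocks, and the coding sequences of the pair were 67.16% identical. Its level was 37.7 and 29.7 FPKM in liver, 24.2 and 28.3 in small intestine, 28.7 and 22.9 in kidney and 16.6 and 15.8 in lung. It was present at 15.8 FPKM or more in every library, lung was lowest in both, and small intestine and kidney overlapped. The tissue with the highest level of Aldh3a1 was thus the one with the lowest of Aldh3a2. Only liver against lung was called (2.08-fold, log2 difference 1.0002, SE 0.18, adjusted p = 0.00130), at the edge of the size threshold, and not without lung replicate 2 (lung minus liver, -0.96) or without liver replicate 1 (-0.83). Liver minus small intestine was 0.34 (interval -0.08 to 0.77, adjusted p = 0.143), small intestine minus kidney 0.03 with its sign turned under both other scalings, kidney minus lung 0.63 (adjusted p = 0.0148) and small intestine minus lung 0.66 (adjusted p = 0.0146). Median-of-ratios scaling gave calls for kidney minus lung (1.66), small intestine minus lung (1.38) and liver minus small intestine (1.19), and leaving out mitochondrial genes gave one for kidney minus lung (1.31).

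Pair by pair, 6 of the 9 genes were called for kidney against liver, all higher in liver, where 23.1% of all genes were called, 16.2% higher in kidney and 6.9% in liver. For lung against liver 5 were higher in liver and 1, Aldh3a1, in lung (of all genes 62.7% called, 55.5% higher in lung and 7.21% in liver). For liver against small intestine 6 were higher in liver and 1, Aldh1b1, in small intestine (36.2%, 7.89% higher in liver and 28.3% in small intestine). Kidney against lung gave 2 higher in kidney and 3 in lung, Aldh3a1 among them (50.3%, 8.87% and 41.4%). Kidney against small intestine gave 2 higher in kidney and 3 in small intestine (29.5%, 10.7% and 18.8%). Lung against small intestine gave 3 higher in each, with Aldh3a1 in lung (40.6%, 30.6% and 10.1%). The median difference of the 9 was 1.54 for liver minus small intestine, -1.0002 for lung minus liver and -1.56 for kidney minus liver, beside -0.50, 1.13 and 0.27 over all genes tested.

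**Figure D3:**
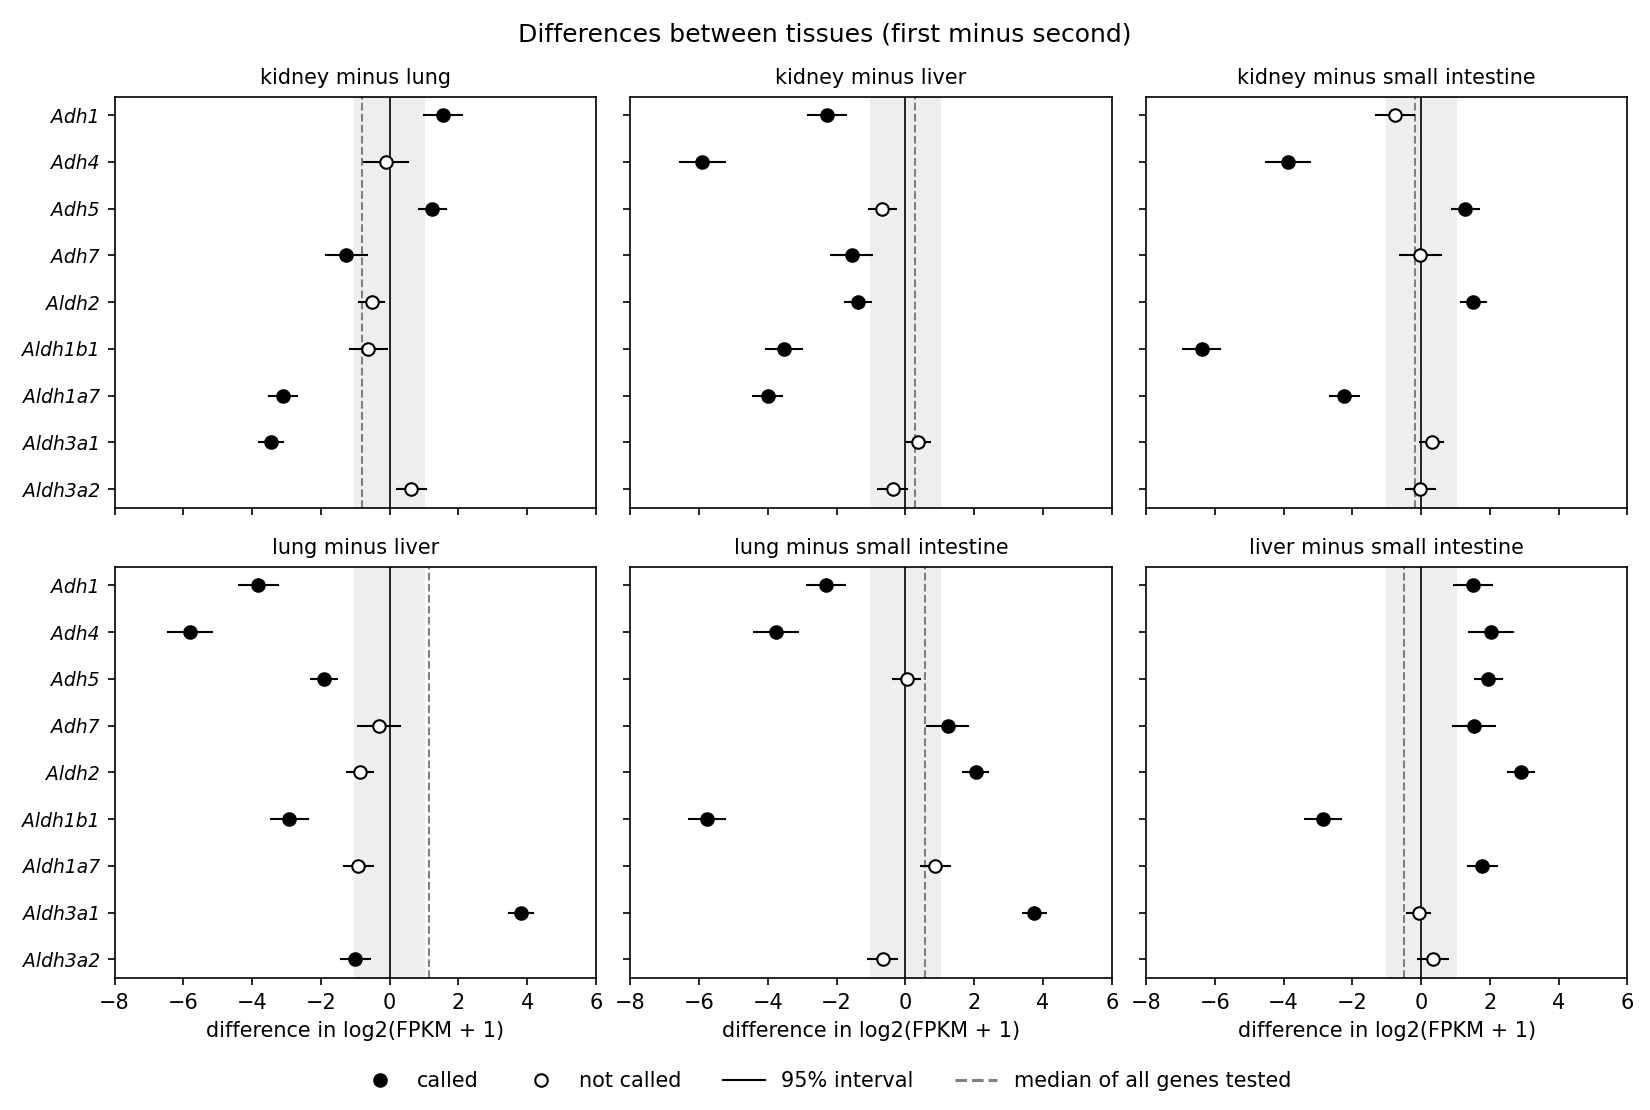
Difference in log2(FPKM + 1) between each pair of tissues, first minus second, for the 9 genes, with the 95% interval from limma as a line, filled circles for called differences, the grey band for differences of at most 1 and a dashed line at the median of all genes tested. The members lie mostly on the liver side of the pairs with liver, opposite to the dashed line, and with median-of-ratios scaling 5 of the open circles change sign.

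The deposited scale divides by the reads of each library, and on it the median of all genes was apart between tissues, by -0.81 for kidney minus lung, -0.18 for kidney minus small intestine and 0.57 for lung minus small intestine beside the values above. Scaled by the median of ratios, these medians lay between -0.03 and 0.003, and the share of called genes that were higher in the first tissue went from 88.5% to 50.9% for lung against liver, from 70.1% to 51.2% for kidney against liver, from 21.8% to 48.0% for liver against small intestine, from 17.6% to 50.1% for kidney against lung, from 36.3% to 47.9% for kidney against small intestine and from 75.2% to 48.3% for lung against small intestine. The near even shares follow from the centring, and subtracting the median of all genes moves every gene of a pair by the same amount. Adh1 in liver was 3.82 above lung on the deposited scale and 4.95 after subtracting the median, Aldh2 0.86 and 1.99, and Aldh3a2 1.0002 and 2.13. Aldh3a1 in lung was 3.83 above liver and 2.69 after subtracting it.

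Within the Adh members Adh1 made up most of the summed FPKM in each tissue: 80.9% ± 1.71 in liver, 86.3% ± 0.739 in small intestine, 76.1% ± 1.40 in kidney and 68.5% ± 2.91 in lung (SD, n = 2). The sum itself was 614 and 624 FPKM in liver libraries, 265 and 155 in small intestine, 132 and 138 in kidney and 48.4 and 52.4 in lung. Adh5 took the larger part of the rest in kidney, 23.3% ± 1.73, and in lung, 25.3% ± 2.74, and Adh4 in liver, 10.3% ± 1.204. With Adh6a and Adh6b counted, the share of Adh1 in small intestine was 34.4%. Within the Aldh members Aldh2 took 73.4% ± 1.53 in kidney, 60.8% ± 3.47 in lung and 61.1% ± 0.316 in liver, but 13.5% ± 2.21 in small intestine, where Aldh1b1 took 62.6% ± 1.59. With all listed Aldh genes counted, Aldh2 took 14.6% in kidney, behind Aldh9a1 at 23.5%, and 23.5% in lung, behind Aldh1a1 at 40.9%. In liver Aldh2 took 21.7% ± 0.821 and Aldh1a1 22.6% ± 0.488, a small step that held within both libraries (22.3% against 22.9% and 21.1% against 22.2%). Aldh1b1 took 24.2% in small intestine. Aldh1a7 took 24.1% ± 3.07 in lung and 25.1% ± 0.545 in liver.

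**Figure D4:**
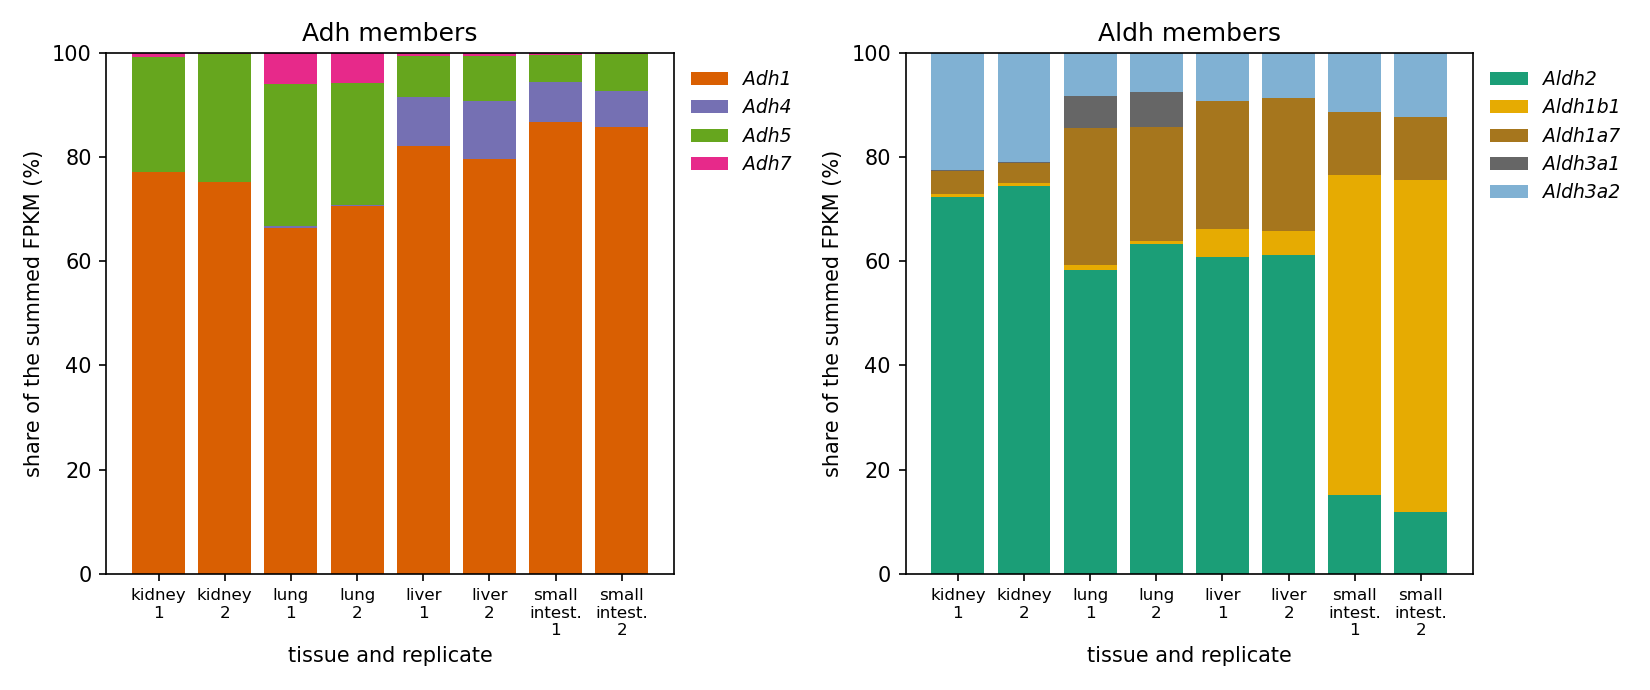
Share of each gene, in percent, in the summed FPKM of the Adh members (left) and of the Aldh members (right), 1 bar per library. Adh1 is the largest part of every bar on the left, and on the right Aldh2 is the largest in kidney, lung and liver and Aldh1b1 in small intestine. This is an order among the plotted genes alone, since Adh6a in small intestine, Aldh9a1 in kidney and Aldh1a1 in lung were higher. In liver Aldh1a1 was above Aldh2 by a small step.

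In small intestine the replicates stood further apart for each of the 4 Adh members than for each Aldh member with reads in both. Replicate 1 was 1.73 times replicate 2 for Adh1, 1.85 times for Adh4, 1.28 times for Adh5 and 2.35 times for Adh7. For the Aldh members the ratio was 1.17 for Aldh2, 0.891 for Aldh1b1, 0.923 for Aldh1a7 and 0.855 for Aldh3a2. The median ratio over 11454 genes at 1 FPKM or more in both libraries was 1.04, and 4.11% of them had a ratio as high as that of Adh1 or higher. In the same libraries the summed markers of pancreatic acinar cells were 1609 and 753 FPKM, all 5 higher in replicate 1, those of gastric epithelium 98.2 and 0.371, those of enterocytes 5837 and 7607, and those of goblet cells 3027 and 2918. The gastric sum rested on Gkn1, at 30.6 and 0, and Gkn2, at 66.7 and 0, while Tff1, Muc5ac, Atp4a and Gif were each at most 0.407 in both libraries, with Atp4a and Gif slightly higher in replicate 2. The enterocyte sum rested mostly on Fabp2, at 4472 and 6134 FPKM, while Alpi went the other way, at 640 and 474. The part of these cells in the levels of the Adh genes was not tested. The count of called member comparisons was 35 with either library of small intestine left out, but without replicate 2 the call of Adh7 for lung against small intestine was lost and that of Adh1 for small intestine against kidney was gained.

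Of 24 other genes of these families and of ethanol oxidation, 20 passed the filter, and 86 of their 120 comparisons (71.7%) were called, beside the 40.4% over all genes. Adh6a and Aldh1a3 passed through small intestine alone, and without them 80 of 108 (74.1%) were called. Cyp2e1, the cytochrome P450 that oxidizes ethanol in microsomes, was at 2138 and 1658 FPKM in liver, 428 and 347 in kidney, 14.8 and 8.65 in lung and 3.07 and 2.09 in small intestine, falling in the order liver, kidney, lung and small intestine with each step called. Cat, catalase, was at 893 and 830.4 in liver and at most 340.0 elsewhere, and liver was called above kidney (1.43, adjusted p = 0.000122). Acss2, which makes acetyl-CoA from acetate, was highest in kidney at 20.01 and 16.5 and was called above liver, at 8.79 and 6.02 (1.21, adjusted p = 0.00516), a difference of 0.94 after subtracting the median of all genes. Aldh3b1, a relative of Aldh3a1 and Aldh3a2, was highest in lung at 48.3 and 44.8, called above small intestine at 18.3 and 17.8 (1.32, adjusted p = 0.000253), a difference of 0.75 after subtracting the median of all genes. Among the listed genes Akr1a1, an aldehyde reductase, was highest in kidney with a mean of 711 FPKM.

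The genes most like each member were taken as those at the smallest Euclidean distance in log2(FPKM + 1) over the 8 libraries. For Adh1 these were Acaa2 at 1.51, Gstp2 at 2.03 and Scp2 at 2.14, and for Adh4 they were Ugt2b35 at 0.81, Hsd17b13 at 1.44 and Aqp8 at 1.496. For Aldh1b1 they were Tm6sf2 at 1.44, Soat2 at 1.71 and Mttp at 2.06, the last the transfer protein that loads lipid onto lipoproteins in intestine and liver. Aldh2 had Errfi1 at 1.70, Herpud1 at 1.75 and Sqstm1 at 2.07, and Aldh1a7 had Cyp2d22 at 1.38, Cebpa at 1.62 and Krt18 at 2.11. The nearest to Adh5 was Clpx at 0.55, followed by Got2 and Tuba4a, and the nearest to Adh7 was St6galnac6 at 0.73, followed by Gm3571 and Gm11008. Aldh3a1 was nearest to Spaca9 at 0.40, and Aldh3a2 to Sqor at 0.71, followed by Alad and Hadhb. The ordering is a description of these 8 libraries.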

How the data were processed

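Bulk RNA of 4 tissues was measured in 8 libraries, 2 per tissue, grouped by the sample labels. By the methods of the study, the authors picked reads by index with bbduk, mapped them with STAR 2.5.3a to the mouse genome of Ensembl and deposited FPKM values from the fpkm function of DESeq2. The counting program and its use of strand were not given in the sources used here. All 4 tissues came from each mouse, so libraries of different tissues share mice, but which do was not given, and the main model leaves this out.

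The 9 genes and all lists were chosen with earlier results of these data known. Symbols matched 1 exon length of GENCODE M21 for 51847 genes, and with it 92.0% to 93.0% of values above 0 per library came out as whole reads within 0.02, all values of the 9 genes among them. This gave the depth. A value of 1 read covers counting error only, and 3 reads was taken as the floor of detection.

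limma 3.58.1 (lmFit, contrasts.fit, eBayes with trend) in R 4.3.3 was fitted to log2(FPKM + 1) in 1 model of the 8 libraries, for the 16328 genes that reached an FPKM of 1 in 2 or more libraries. Benjamini-Hochberg adjustment ran over all of them within each of 6 pairwise contrasts. The fit was tested on simulated data. Alternatives were median-of-ratios scaling, the same sum without 37 mitochondrial genes and 7 pseudogenes of them, a pseudocount of 0.1, no filter, no trend, the pair's tissues alone, limma-voom on recovered reads, a replicate block and each library left out. Named genes were the 9, relatives and partners in ethanol oxidation, the highest listed gene per tissue and the 3 nearest genes of each, of which those after the nearest of Aldh3a1 are not reported here. Promoters are from RefSeq. Coordinates are of GRCm38.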

Additional observations from a re-analysis of the deposited data

How the results depend on the processing

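Of the 35 called member comparisons, 31 were called under every one of 16 alternatives that gave them a value, and none changed sign. The 4 others were Adh7 for kidney minus lung and for lung minus small intestine, Aldh2 for kidney minus liver and Aldh3a2 for lung minus liver, as given above. Of the 19 not called, 11 were called under some alternative. The count of called comparisons ran from 31 to 40, the latter under median-of-ratios scaling, where 32.1% of all comparisons over all genes were called, that of genes passing the F-test from 8 to 9 and that of called comparisons of the listed genes from 80 to 93. Aldh3a1 did not pass the filter when a lung library was left out, which removed its comparisons. No pairing by replicate number was seen (correlation of deviations between tissues from -0.217 to 0.0528). With 2 libraries per tissue this cannot show that libraries of the same number came from different mice. A fit with the replicate number as a block called 35 member comparisons and 39529 over all genes, beside 39585 without it.

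Only differences that were not called changed sign. Under median-of-ratios scaling they were Adh4 for kidney minus lung (0.0299), Adh5 for lung minus small intestine (-0.67), Adh7 (0.0764) and Aldh3a2 (0.28) for kidney minus small intestine and Aldh2 for kidney minus lung (0.57). Without mitochondrial genes in the sum they were Adh5 for lung minus small intestine (-0.13), Adh7 (0.19) and Aldh3a2 (0.47) for kidney minus small intestine, Aldh2 for kidney minus lung (0.18) and Aldh3a2 for kidney minus liver (0.19). With 1 library left out they were Adh4 for kidney minus lung (from -0.21 to 0.0069), Adh5 for lung minus small intestine (-0.12 to 0.21), and Adh7 (-0.35 to 0.30) and Aldh3a2 (-0.18 to 0.13) for kidney minus small intestine. The causes were not tested, beyond the changed scaling or the smaller number of libraries.

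Counted as reads rather than per length, the share of Adh1 was 81.1% for small intestine, 74.6% for liver, 57.1% for kidney and 49.0% for lung, and that of Aldh2 22.7% for small intestine, 73.4% for liver and 74.2% for lung. With Adh6a and Adh6b counted, Adh1 fell to 34.4% of the small intestine sum, and with all listed Aldh genes counted Aldh2 fell to 14.6% of that of kidney, 23.5% of lung, 21.7% of liver and 5.21% of small intestine. With 2 libraries per tissue, levels resting on a few reads, as of Adh4 in kidney and lung, gave no usable fold.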

Other observations

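Some of the other listed genes differed widely between tissues. Adhfe1, an iron-containing alcohol dehydrogenase that acts on hydroxy acids, was at 55.5 and 50.8 FPKM in kidney, 16.7 and 18.0 in liver, 2.30 and 2.75 in lung and 0.311 and 0.257 in small intestine, and all 6 comparisons were called by limma with Benjamini-Hochberg adjustment, that of lung with small intestine being 0.89 after subtracting the median of all genes. Aldh18a1, which makes a precursor of proline and ornithine, was at 35.7 and 28.8 in small intestine and at most 3.999 elsewhere (log2 difference from lung 2.95, SE 0.24, adjusted p = 2.65e-05). Acss1, the mitochondrial acetyl-CoA synthetase, was at 61.4 and 35.03 in kidney, 16.3 and 16.8 in lung, 8.59 and 7.62 in small intestine and 0.106 and 0.188 in liver. These genes were named after their values were seen.

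Of the 20 listed genes tested, 8 were highest in kidney, 6 in liver, 4 in small intestine and 2 in lung. Called against the next tissue were 4 of those in kidney, 3 in liver, 3 in small intestine and 1 in lung. Those of small intestine included Adh6a and Aldh1a3, which passed the filter through that tissue alone. None of the 9 members was highest in kidney on the deposited scale.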
